A study of Mus musculus with 6 samples.

Results

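Genes of the semaphorin, ephrin and Slit guidance systems were examined in RNA sequencing of gonads of male E13.5 mouse embryos. The members were all rows whose gene symbol belonged to the semaphorins of classes 3 to 7, the plexins, the ephrins, the Eph receptors, Slit1 to Slit3 or Unc5a to Unc5d, which gave 57 of the 16862 genes listed. There were 20 semaphorins, 9 plexins, 8 ephrins, 13 Eph receptors, 3 Slits and 4 Unc5 receptors. The KO group held 3 libraries, numbered 5, 7 and 8, from L/H-Pgds-/- embryos, labelled as mutant for both the lipocalin-type (L-Pgds) and the hematopoietic (H-Pgds) prostaglandin D synthase. The WT group held 3 libraries, numbered 1, 3 and 4, from wild-type embryos, and all 6 libraries came from strain C57BL/6. The labels speak of littermates of both genotypes but not of which libraries shared a litter. They give no batch, no pairing and no number of gonads in a library, so the libraries were counted as independent and p-values measure the spread between them, which may be technical. KO stands for the joint mutation and not for either gene alone.

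Semaphorins are secreted or membrane-bound cues that bind plexins, in class 3 mostly with a neuropilin as co-receptor, and plexins act on small GTPases inside the cell. Ephrins are tethered to the cell surface and bind Eph receptors, a family of receptor tyrosine kinases, so that signals pass in both directions where cells touch. Slits are secreted ligands of Robo receptors, and Unc5 proteins are netrin receptors that mediate repulsion. These systems are best known from growing axons and are also known to position cells and to shape blood vessels, where Efnb2 marks arteries and Ephb4 marks veins.

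The values are upper-quartile normalised pseudo-counts, the authors' adjusted and fractional gene values, and not reads. Their sums lay between 21657342 and 21846849 in KO and between 22881124 and 23734462 in WT, since the libraries were scaled on the upper quartile and not on the total, and the sequencing depth is unknown. Ptgds, which encodes L-Pgds, averaged 7.39 ± 6.81 in KO and 7803 ± 1114 in WT (SD, n = 3 each), a fall (log2 -10.15, adjusted p = 3.41e-06). Hpgds, the H-Pgds gene, went the other way, at 92.9 ± 9.32 in KO and 49.2 ± 5.21 in WT (1.87-fold higher, adjusted p = 0.00853; log2 0.61 and adjusted p = 0.107 once corrected for transcript length and GC content). The labels do not say what was deleted, so the level of Hpgds does not check the genotype. Markers of gonadal cell types were in place. Amh of Sertoli cells stood at 49264 ± 11745 in KO and 63893 ± 9904 in WT (adjusted p = 0.131). Cyp11a1 of Leydig cells stood at 16557 ± 3609 in KO and 25097 ± 8146 in WT (adjusted p = 0.059). Neither difference had an adjusted p under 0.05. Corrected for length and GC, the log2 changes of Amh and Cyp11a1 were 0.12 and -0.32 (adjusted p = 0.706 and 0.314). In whole gonads, fewer cells of a type and less RNA per cell cannot be told apart.

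Guidance genes of every family were present in the gonads. Levels of different genes were compared as the mean pseudo-count per kilobase of the longest protein-coding transcript. The ephrin Efnb1 led with 1787 per kb in KO and 2032 per kb in WT, followed by the plexin Plxnb2 with 1240 and 1321 per kb in KO and WT, the Eph receptor Ephb4 with 1028 and 1146 per kb, and the plexin Plxnd1 with 937 and 874 per kb. Among semaphorins the highest level per kb was that of Sema7a, a membrane-anchored ligand, at 702 in KO and 758 in WT. Slit2 was the leading Slit, at 221 per kb in KO and 133 per kb in WT, and Unc5b the leading Unc5 receptor, at 318 and 315 per kb. At the low end, Unc5d stood at 2.25 per kb in KO and 2.18 per kb in WT and Epha5 at 0.407 and 0.375. Epha5, with pseudo-counts of 5.09, 3.7 and 0.165 in KO and 1.75, 4.04 and 2.46 in WT, was the 1 member that did not reach 10 in 3 or more libraries, the filter used here.

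**Figure D1:**
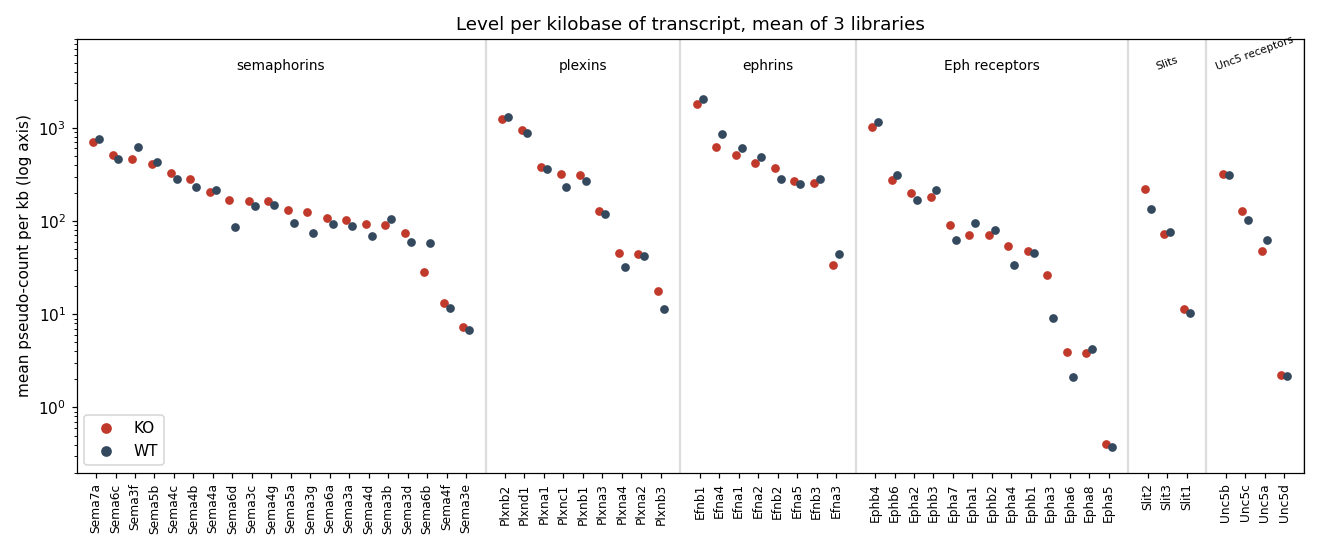
Mean pseudo-count per kilobase of transcript for the 57 guidance genes (log axis), ordered by level in KO within each family, with KO in red and WT in dark blue, each point a mean of 3 libraries. In KO the levels spanned from 0.407 per kb for Epha5 to 1787 per kb for Efnb1.

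Of the 56 members tested, 12 rose and 3 fell in KO, against WT, called where the adjusted p of limma's moderated test, by Benjamini-Hochberg over 15116 genes, was under 0.05. Among all genes tested 34.3% were called, 17.3% higher and 17.0% lower. The members were called higher in 21.4% and lower in 5.36%, so the share called higher was near that of all genes and the share called lower was below it. The median log2 change was 0.11 over the members and -0.03 over all genes tested. With the libraries scaled to equal totals 14 members rose and 2 fell, where all genes gave 3507 higher and 1687 lower. Without WT library 1, 9 members rose and 3 fell, and 29.8% of all genes were called, 15.5% higher and 14.3% lower. In 14 members every KO library was above every WT library and in 8 every KO library was below, where all genes gave 24.7% and 25.6%. The 14 include Epha6, which passed the filter mainly through its KO libraries. With 3 libraries against 3, an exact two-sided permutation test cannot reach a p below 0.1 for any member. For 41 members the difference was not separated from the spread between libraries.

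Guidance transcripts are long and rich in G and C, with a median of 4730 nt and 56.3% GC against 3121 nt and 50.6% over all genes tested. Across the genes of this series the change between KO and WT follows transcript length and GC content, which account for 42% of its variance over genes. Among the 56 members the log2 change had a Spearman rho of 0.565 with length and -0.618 with GC content, against 0.603 and -0.523 over 14449 genes. These are descriptions across genes that share the same 6 libraries. The 12 members that rose had transcripts of 4482 to 12877 nt with 41.7% to 56.2% GC, and the 3 that fell had 1599 to 3736 nt with 56.8% to 63.5% GC. The changes of members past the threshold are therefore given as deposited and again as corrected values. For the corrected values the dependence on length and GC was taken out library by library. Whether this dependence is technical or biological was not tested, so a call that ends on correction is not shown to be an artefact. By corrected values 3 members were higher (Epha3, Sema6d and Sema3g) and 0 were lower, where 11.4% of all genes were called, 5.68% higher and 5.77% lower. In that fit 19 of 56 members had an unadjusted p under 0.05, as had 3928 of all 14449 genes. The members' median log2 change was then 0.00, against -0.01 over all genes tested.

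**Figure D2:**
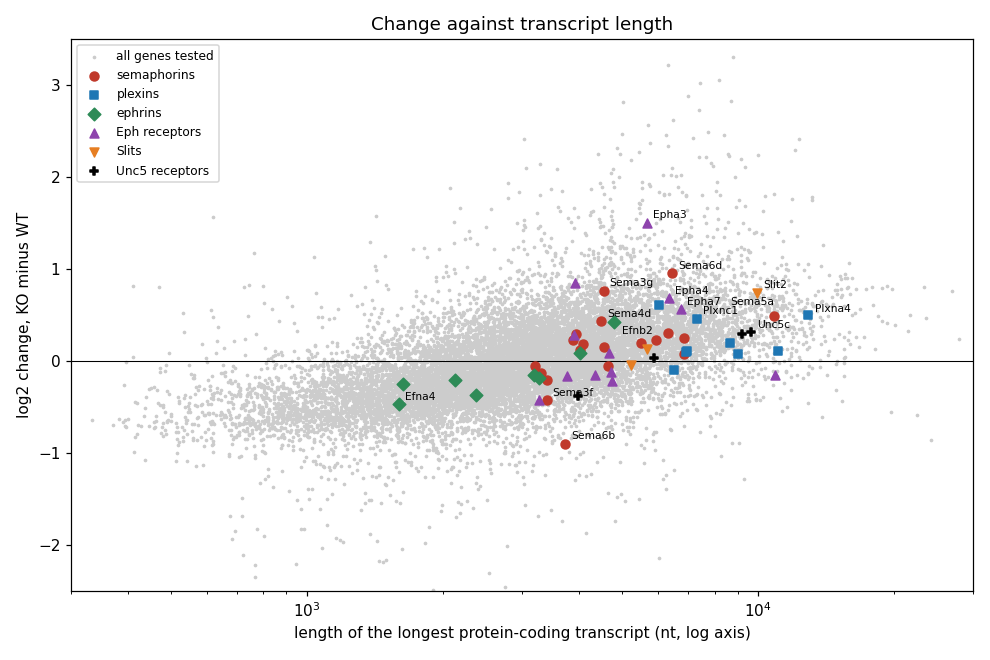
Log2 change between KO and WT (KO minus WT, vertical axis) against the length of the longest protein-coding transcript in nt (log axis), with all genes tested that have a length in grey, 10 of them outside the axes, and the guidance genes coloured by family. The short ephrin-A transcript of Efna4, at 1599 nt, sits at -0.47 and the 9960 nt transcript of Slit2 sits at 0.74. Epha3 sits at 1.50 and Sema6b at -0.90. Without WT library 1 the change of Sema6b was -0.51 (adjusted p = 0.0537).

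The Eph receptor Epha3 had the highest change of any member. Epha3 binds ephrin-A ligands, among them ephrin-A5. Its pseudo-counts were 144, 132 and 176 in KO and 53.2, 52.6 and 50.3 in WT, so every KO library was above every WT library. The change was 2.84-fold (log2 1.50, SE 0.19, adjusted p = 0.00145), and the corrected log2 change was 1.01 (SE 0.21, adjusted p = 0.0144). With 1 library left out the log2 change of Epha3 lay between 1.39 and 1.59 and the call was kept in all 6 cases. Epha3 lies on chromosome 16 from 63545044 to 63863983 in mm9, the build of the deposited table.

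Sema6d and Sema3g were the semaphorins that rose both as deposited and corrected. Sema6d is a membrane-bound semaphorin and a ligand of Plxna1. It had 1047, 1016 and 1171 in KO and 519, 672 and 492 in WT, a 1.94-fold change (log2 0.95, SE 0.13, adjusted p = 0.00172), and the corrected log2 change was 0.62 (adjusted p = 0.00789). Its receptor Plxna1 stood at 3460 ± 469 in KO and 3296 ± 360 in WT (SD, n = 3 each; adjusted p = 0.676). Sema3g is a secreted class 3 semaphorin known from endothelial cells. It had 579, 497 and 634 in KO and 335, 413 and 272 in WT, a 1.69-fold change (log2 0.76, SE 0.16, adjusted p = 0.00655). The lowest KO library was above the highest WT library for both genes. For Sema3g length and GC accounted for -0.01 of the log2 change, and the corrected change was 0.77 (SE 0.13, adjusted p = 0.00789). Both calls were kept with each of the 6 libraries left out. Sema6d lies on chromosome 2 from 124436032 to 124493506 and Sema3g on chromosome 14 from 32031059 to 32042697 in mm9.

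The 250 bases before the annotated start are shown for the members called both ways that have 1 start in the RefSeq table, on build GRCm38.p6. Sema6d has 2 starts there and is not shown. Each runs 5′ to 3′ on the strand of its gene, and capitals mark a match to a motif searched on both strands.
Epha3, chr16:63864176-63864425, minus strand: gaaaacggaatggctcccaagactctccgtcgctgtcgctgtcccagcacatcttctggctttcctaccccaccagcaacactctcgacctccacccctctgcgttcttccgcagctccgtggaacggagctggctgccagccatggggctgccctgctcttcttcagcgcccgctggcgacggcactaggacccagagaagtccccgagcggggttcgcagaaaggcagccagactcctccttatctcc
Sema3g, chr14:31217623-31217872, plus strand: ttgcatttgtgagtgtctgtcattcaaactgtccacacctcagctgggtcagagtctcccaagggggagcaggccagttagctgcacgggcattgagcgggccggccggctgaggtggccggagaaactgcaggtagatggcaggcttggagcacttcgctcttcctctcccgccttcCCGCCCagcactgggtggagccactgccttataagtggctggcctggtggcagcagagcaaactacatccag
The motifs were the GC box GGGCGG, the box CCAAT, the TATA motif TATAAA and the core AAGGTCA, which Nr5a1 binds, a factor of steroid-producing and supporting cells. The window of Sema3g held 1 GC box, on the opposite strand, and 0 of the other motifs, and that of Epha3 held 0 matches to all of these. Epha3 had 62.8% GC with 16 CpG and Sema3g 60.4% GC with 8 CpG. Over the 63 windows of the 49 members with an entry the median was 64.4% GC and 16 CpG, against 52.4% GC and 6 CpG over 32851 windows of all genes. A GC box was present in 47 of the members' windows and in 32.7% of all windows, CCAAT in 18 and in 33.8%, TATAAA in 2 and in 12.4%, and AAGGTCA in 2 and in 4.08%. These are matches of letters and not binding sites.

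**Figure D3:**
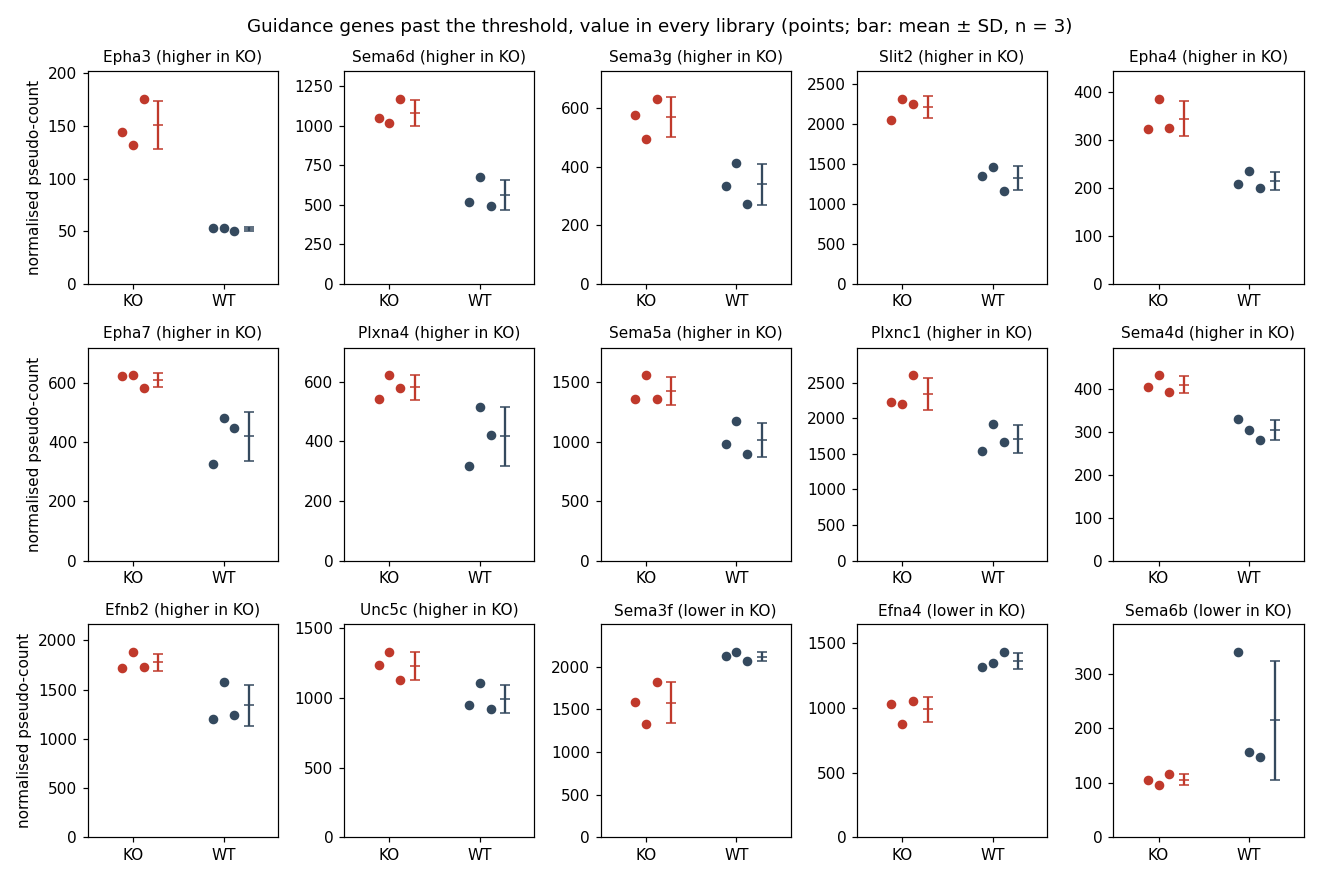
Normalised pseudo-count of the 15 members past the threshold in every library, with KO on the left and WT on the right of each panel, a point for each library in the order of their numbers and a bar for the mean ± SD (n = 3). The panels were chosen by the KO against WT test on these values, and KO and WT points overlap in none. Over all genes tested 50.3% did not overlap. In the panel of Sema6b WT library 1 stands at 340 above 156 and 148 in the other WT libraries.

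Among 20 semaphorins 4 were higher, 2 lower and 14 without a call as deposited. That was 20% higher and 10% lower, where all genes gave 17.3% and 17.0%. Corrected, 2 were higher and 0 lower, where all genes gave 5.68% and 5.77%. Besides Sema6d and Sema3g, Sema5a and Sema4d rose as deposited. Sema5a carries thrombospondin repeats and binds Plxnb3. It had 1356, 1558 and 1361 in KO and 980, 1174 and 896 in WT (log2 0.49, SE 0.12, adjusted p = 0.00954), and its corrected log2 change was -0.01. Sema4d, a ligand of Plxnb1, had 406, 433 and 395 in KO and 330, 306 and 283 in WT (log2 0.43, SE 0.12, adjusted p = 0.0214), and its corrected log2 change was 0.36 (adjusted p = 0.0699). In both genes the KO libraries were all above the WT libraries. The call of Sema4d ended without KO library 5 (adjusted p = 0.0676), KO library 7 (0.0574) or WT library 4 (0.0857).

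The semaphorins that fell were Sema3f and Sema6b. Sema3f is a secreted repellent that acts through Nrp2. It had 1590, 1332 and 1817 in KO and 2122, 2169 and 2064 in WT, with the WT libraries close together and all above KO (log2 -0.43, SE 0.11, adjusted p = 0.0144). The corrected log2 change of Sema3f was -0.25 (SE 0.08, adjusted p = 0.0625). Sema6b, a ligand of Plxna4, had 106, 96.7 and 116 in KO and 340, 156 and 148 in WT (log2 -0.90, SE 0.29, adjusted p = 0.0345). WT library 1 held the highest value by far. Without it the log2 change of Sema6b was -0.51 (adjusted p = 0.0537), and the call also ended without any 1 of the KO libraries (adjusted p = 0.0885 without KO library 5, 0.0968 without 7 and 0.0592 without 8). Corrected, Sema6b was at -0.73 (adjusted p = 0.118).

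Of 7 class 3 semaphorins tested, Sema3g rose, Sema3f fell and the other 5 had adjusted p between 0.2 and 0.867. Among all genes 17.3% were higher and 17.0% lower. Sema3f was not called once corrected (adjusted p = 0.0625). Sema3a, Sema3c, Sema3d and Sema3e lie on chromosome 5 between 12383166 and 17236085, and have transcripts with 39.2% to 42.7% GC. Sema3d had 416, 616 and 360 in KO and 464, 312 and 341 in WT, and the groups overlapped. As deposited the log2 changes of these neighbours were 0.23, 0.19, 0.30 and 0.07, and corrected they were -0.31, -0.28, -0.29 and -0.48 (adjusted p from 0.0898 to 0.3). Sema3b, next to Sema3f on chromosome 9, had 332, 248 and 351 in KO and 405, 303 and 366 in WT (adjusted p = 0.349). Of the 6 class 4 semaphorins only Sema4d was called, and the log2 changes of that class lay between 0.11 and 0.37 when corrected. Sema7a, the semaphorin with the highest mean pseudo-count, had 2340, 1855 and 2747 in KO and 2240, 2673 and 2582 in WT, and the WT values lay within the KO range (adjusted p = 0.501).

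Among 9 plexins, the semaphorin receptors, 2 rose (22.2%) and 0 fell, where all genes gave 17.3% and 17.0%. Plxnc1 is the receptor of Sema7a. It had 2231, 2194 and 2603 in KO and 1540, 1923 and 1668 in WT, with no overlap (log2 0.46, SE 0.11, adjusted p = 0.00982). Its call was kept with each library left out, and its corrected log2 change was 0.10 (adjusted p = 0.517). Plxna4, a receptor for Sema3a with neuropilin and for Sema6b, had 541, 622 and 581 in KO and 316, 515 and 422 in WT (log2 0.50, SE 0.17, adjusted p = 0.0402). Library WT 1 was the lowest, and without it the log2 change of Plxna4 was 0.31 (adjusted p = 0.0997). Of the 6 fits with a library left out, the 1 without WT library 3 kept this call, and adjusted p reached 0.109 without KO library 7. Corrected, the change of Plxna4 was 0.17 on the log2 scale (adjusted p = 0.583). The span of Plxna4 overlaps the row B230378P21Rik, and the library kit does not mark strand, so reads of both cannot be told apart.

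The plexins with the highest values had no call. Plxnb2 had 7558, 7001 and 9614 in KO and 8045, 9165 and 8539 in WT (log2 -0.10, adjusted p = 0.535), and KO libraries lay both below and above WT. Plxnd1, an endothelial plexin and receptor of Sema3e, stood at 6471 ± 844 in KO and 6039 ± 756 in WT (SD, n = 3 each; adjusted p = 0.551). Plxnb1, the receptor of Sema4d, stood at 2704 ± 456 in KO and 2346 ± 91.8 in WT (adjusted p = 0.229). Plxnb3, the plexin bound by Sema5a, missed the threshold with 95.9, 92.9 and 131 in KO and 67.6, 82.2 and 58.4 in WT, where every KO library was above WT (log2 0.61, SE 0.22, adjusted p = 0.0564; corrected 0.51 and 0.114). Corrected, 0 plexins were called, where 11.4% of all genes were.

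Ephrins, the ligands of Eph receptors, had 1 member higher, 1 lower and 6 without a call. These were 12.5% higher and 12.5% lower, where all genes gave 17.3% and 17.0%. Efnb2, the arterial ephrin-B, had 1719, 1880 and 1734 in KO and 1200, 1579 and 1242 in WT, with no overlap (log2 0.42, SE 0.11, adjusted p = 0.0178). Its call ended without WT library 1 (adjusted p = 0.0501) or WT library 4 (0.0771), and its corrected log2 change was 0.23 (adjusted p = 0.175). Efna4, a lipid-anchored ephrin-A, had 1032, 880 and 1056 in KO and 1315, 1350 and 1432 in WT (log2 -0.47, SE 0.10, adjusted p = 0.00612). All KO libraries of Efna4 were below WT and the call was kept with each library left out. For its short transcript, length and GC accounted for -0.47 of the log2 change, and the corrected adjusted p was 0.993.

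Efna1, Efna3 and Efna4 lie on chromosome 3 between 89075652 and 89141950 in mm9. Efna3 had 71.5, 84 and 86.1 in KO and 120, 108 and 86.9 in WT (log2 -0.37, adjusted p = 0.175). Efna1 had 913, 732 and 855 in KO and 862, 1063 and 1060 in WT (log2 -0.25, adjusted p = 0.13; corrected 0.14), and without WT library 1 it was past the threshold (log2 -0.35, adjusted p = 0.0474). Efna5, the ephrin-A with the longest transcript (4032 nt), was the 1 ephrin-A of 5 with a positive log2 change as deposited, 0.08 (adjusted p = 0.578), and stood at -0.21 when corrected. Efnb1, the ephrin with the highest level, had 5482, 5304 and 6679 in KO and 6136, 6859 and 6869 in WT, and the groups overlapped (log2 -0.19, adjusted p = 0.184), while without KO library 8 it was past the threshold (log2 -0.29).

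Among 12 Eph receptors tested, 3 of the A class rose and 0 of the B class were called. The family was thus called higher in 25% and lower in 0%, where all genes gave 17.3% and 17.0%. Beside Epha3, the receptors that rose were Epha4, which binds ephrins of both classes, and Epha7, a receptor of ephrin-A ligands. Epha4 had 323, 386 and 324 in KO and 208, 235 and 200 in WT, a 1.60-fold change (log2 0.68, SE 0.14, adjusted p = 0.00524) that was called with each library left out. Epha7 had 623, 625 and 581 in KO and 327, 482 and 449 in WT (log2 0.56, SE 0.15, adjusted p = 0.0162), and its call ended without KO library 5 (adjusted p = 0.0593). KO libraries were above WT in both genes. The corrected log2 change of Epha4 was 0.25 (adjusted p = 0.196) and that of Epha7 was 0.01 (adjusted p = 0.974). Epha6, a low gene with 14.3, 12.9 and 18.7 in KO and 5.29, 10.8 and 8.66 in WT, did not overlap between the groups and had no call (log2 0.85, SE 0.41, adjusted p = 0.133).

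The other A-class receptors had no call. Epha1 had 285, 201 and 217 in KO and 365, 293 and 285 in WT (log2 -0.43, adjusted p = 0.0734), and Epha2 stood at 792 ± 32.7 in KO and 657 ± 119 in WT (SD, n = 3 each; adjusted p = 0.118). Epha8, near the filter, averaged 17.9 in KO and 19.9 in WT. In the B class the log2 changes lay between -0.22 and 0.09 (adjusted p from 0.103 to 0.643). Ephb4, the venous receptor of Efnb2, had 4500, 4235 and 4654 in KO and 4551, 5395 and 4969 in WT (log2 -0.15, adjusted p = 0.214). Whether the A and B classes differ in their change was not tested.

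**Figure D4:**
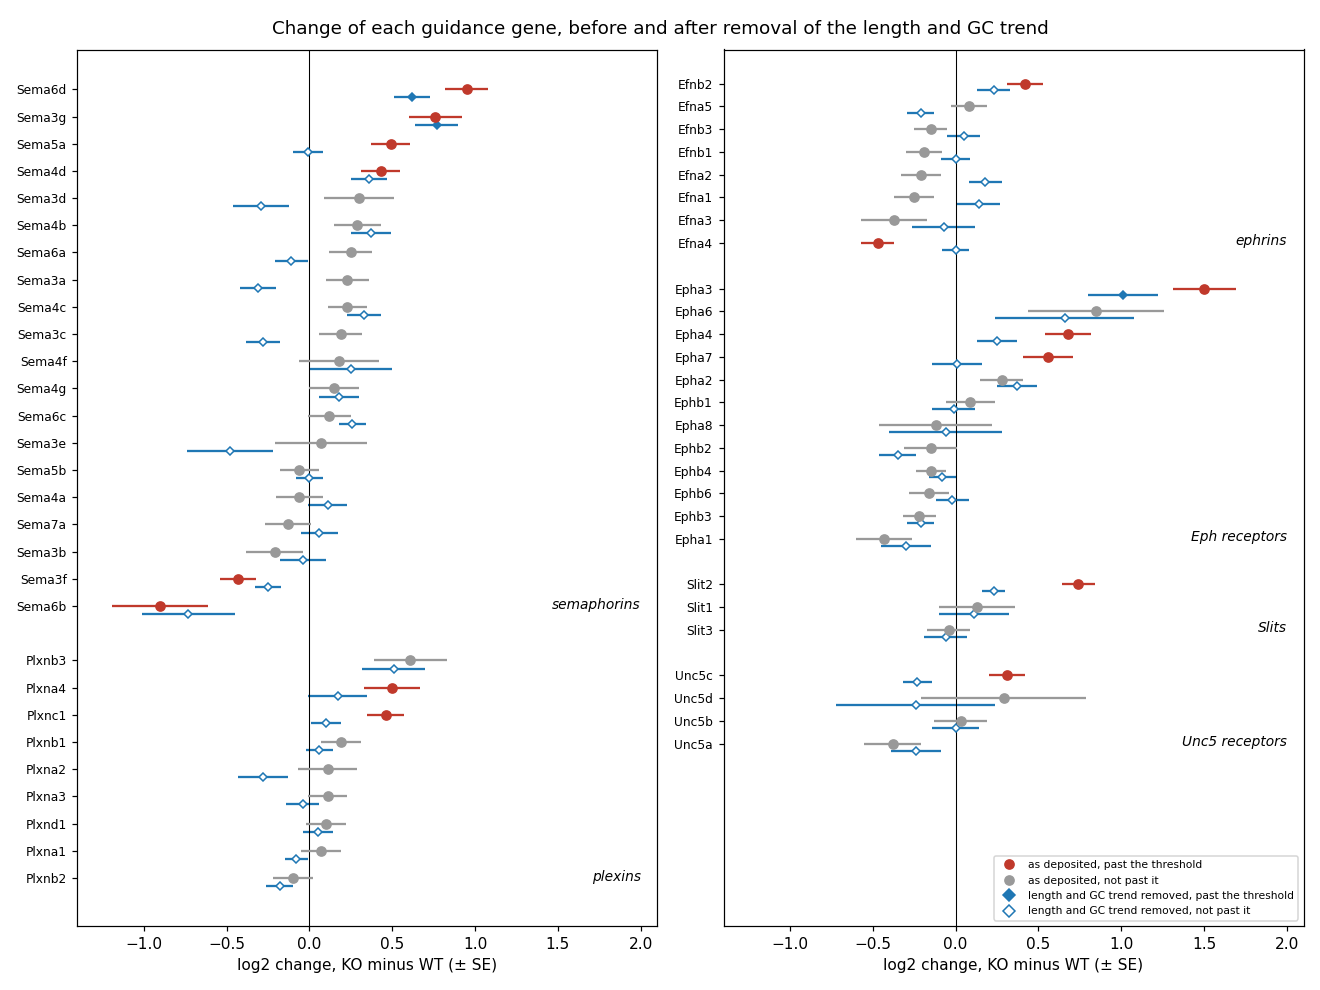
Log2 change of the 56 members tested (KO minus WT, ± SE) by family, with circles for the values as deposited (red past the threshold, grey not) and diamonds for the corrected values (filled past the threshold, open not). Of the 15 red circles 3 have a filled diamond, those of Sema6d, Sema3g and Epha3, and the diamonds of Sema5a, Epha7 and Efna4 lie at -0.01, 0.01 and -0.00.

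Slit2 was the 1 Slit of 3 that rose, where 17.3% of all genes tested rose. It had 2049, 2314 and 2245 in KO and 1349, 1462 and 1165 in WT, far apart relative to the spread within each group (1.67-fold, log2 0.74, SE 0.10, adjusted p = 0.00176). The call held with each library left out, with log2 changes between 0.65 and 0.81. Corrected, Slit2 was at 0.23 on the log2 scale (SE 0.07, adjusted p = 0.0648). Slit1 averaged 64.2 ± 9.09 in KO and 59.1 ± 11.8 in WT, and Slit3 averaged 383 ± 9.22 in KO and 395 ± 56.6 in WT (SD, n = 3 each; adjusted p = 0.701 and 0.852). Slit2 lies on chromosome 5 from 48374394 to 48697017 in mm9.

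Of the 4 Unc5 receptors 1 rose as deposited, where 17.3% of all genes tested rose. Unc5c had 1237, 1326 and 1125 in KO and 948, 1108 and 919 in WT, with the lowest KO library just above the highest WT library (log2 0.31, SE 0.11, adjusted p = 0.0454). The call of Unc5c ended without KO library 5, KO library 7, WT library 1 or WT library 4 (adjusted p = 0.123, 0.112, 0.107 and 0.159), and its corrected log2 change was -0.23 (adjusted p = 0.119). Unc5b, known from endothelial cells, had 1965, 1609 and 2021 in KO and 1407, 2289 and 1853 in WT, where the WT libraries spanned the KO ones (adjusted p = 0.89). Unc5a stood at 192 ± 18.3 in KO and 252 ± 48.3 in WT (SD, n = 3 each; log2 -0.38, adjusted p = 0.103). Unc5d held between 18.0 and 26.0 in KO and between 8.68 and 38.5 in WT.

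Receptors and signalling partners outside these families were read from a list of 48 genes, of which 47 were in the table and tested. In KO 10 rose and 2 fell, 21.3% and 4.26%, where all genes gave 17.3% and 17.0%. Their median log2 change was 0.18 as deposited and -0.01 corrected. By corrected values 7 were higher and 1 lower, where all genes gave 5.68% higher and 5.77% lower. Of the 4 Robo genes, Robo1 and Robo2, which encode Slit receptors, rose. Robo3 (log2 -0.37, adjusted p = 0.455) and Robo4 (log2 0.08, adjusted p = 0.7) were not called. Robo1 had 1740, 1777 and 2005 in KO and 928, 1317 and 950 in WT (log2 0.80, SE 0.13, adjusted p = 0.00256), and Robo2 had 2375, 2758 and 2831 in KO and 1507, 1904 and 1627 in WT (log2 0.66, SE 0.11, adjusted p = 0.00245). KO and WT libraries were fully apart for both receptors. Corrected, Robo1 was past the threshold (log2 0.45, adjusted p = 0.0297) and Robo2 was not (log2 0.09, adjusted p = 0.615).

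Among exchange factors for small GTPases in the list, Trio, Vav2, Arhgef11 and Arhgef12 rose, and Farp1, Farp2, Ngef and Vav3 were not called (log2 0.21, 0.15, -0.14 and 0.44, adjusted p = 0.108, 0.609, 0.693 and 0.087). Trio averaged 2120 ± 114 in KO and 1263 ± 152 in WT (SD, n = 3 each; adjusted p = 0.00172), and Vav2, which binds activated Eph receptors, averaged 459 ± 64.4 in KO and 236 ± 74.1 in WT (adjusted p = 0.00546). Arhgef11, which is bound by B-class plexins, averaged 704 ± 66.8 in KO and 408 ± 75.2 in WT (adjusted p = 0.00317). Trio, Vav2, Arhgef11, Robo1, Dpysl3, Mical3 and Nck2 were the 7 partners higher by corrected values, and Nck1 was the 1 partner lower (corrected log2 -0.29, adjusted p = 0.0353). As deposited Nck1 had a log2 change of 0.18 and no call (adjusted p = 0.273), so its sign turned on correction. Dpysl3, of the collapsin response mediator family, had 90.9, 109 and 177 in KO and 30.4, 51.6 and 37.6 in WT (log2 1.61, SE 0.30, adjusted p = 0.00342; corrected 1.36, adjusted p = 0.0148). As deposited Mical3, Nck2 and Ntn4, a netrin-related ligand, also rose. The corrected log2 change was -0.00 for Arhgef12 and 1.06 for Ntn4 (adjusted p = 0.993 and 0.0605). The calls of Arhgef12, Mical3, Nck2 and Ntn4 each ended in at least 1 fit with a library left out (adjusted p up to 0.0526, 0.0614, 0.158 and 0.0702). Rras, a small GTPase that plexins switch off, fell (log2 -0.73, adjusted p = 0.00195), as did Gipc1, which binds neuropilin (log2 -0.60, adjusted p = 0.00261), and neither call was kept after correction (adjusted p = 0.403 and 0.64). The co-receptors Nrp1 and Nrp2 were not called (adjusted p = 0.234 and 0.0799), nor were Ntn1, Dcc and Neo1 (0.515, 0.654 and 0.211).

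Cell type markers were read beside these results. Of 6 endothelial genes Kdr rose (1341 ± 89.9 in KO and 789 ± 215 in WT; SD, n = 3 each) and Emcn fell (944 ± 44.1 in KO and 1212 ± 180 in WT), and the summed level of the list lay between 8406 and 9396 in KO and between 6689 and 9473 in WT. Sums of the 5 germ cell genes, with Ddx4 higher, lay between 14630 and 25047 in KO and between 12706 and 18172 in WT. Dazl, the largest part of the sum, stood at 10758 ± 4694 in KO and 7249 ± 1049 in WT (SD, n = 3 each). Dazl, Tdrd1, Pou5f1 and Nanos2 had log2 changes of 0.50, 0.09, -0.31 and -1.01 with no call. Hsd3b1 was lower among 5 Leydig genes (sums 48764 to 69394 in KO and 65156 to 107076 in WT), and 0 of 5 Sertoli genes were called (63837 to 86950 in KO and 78467 to 107960 in WT). Among 5 genes of mesonephric epithelium (sums 5849 to 6600 in KO and 4083 to 5766 in WT) Wt1, which supporting cells of the gonad also express, was higher and made up most of the sum, at 6015 ± 337 in KO and 4548 ± 657 in WT (SD, n = 3 each). The other 4, Pax2, Gata3, Pax8 and Cdh16, had log2 changes of -0.28, -0.31, -0.52 and -1.21 with no call. Csf1r was lower among 4 blood and macrophage genes (1234 to 1790 in KO and 991 to 1817 in WT). The 6 neuron and nerve genes in the table summed to between 1460 and 1759 in KO and between 1746 and 1951 in WT, with Tubb3 lower and 0 genes higher. Of 5 interstitial and peritubular genes Pdgfra and Nr2f2 rose and Acta2 fell, with sums between 33438 and 34210 in KO and between 32000 and 39754 in WT. By corrected values Emcn, Csf1r and Wt1 kept their calls, and Kdr, Ddx4, Hsd3b1, Tubb3, Pdgfra, Nr2f2 and Acta2 were not called (adjusted p from 0.0565 for Kdr to 0.317 for Pdgfra). No marker in the table was at 0 in every library. The part of cell composition in the changes of Efnb2, Sema3g, Epha3 or any other member was not tested.

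Within a group, some libraries held the extreme value of a member more often than others. KO library 7 was the lowest KO library for 30 of 56 members and the highest for 19, and KO library 8 was the highest for 32. In WT, library 3 was the highest for 37 members and library 4 the lowest for 29. The median coefficient of variation of a member was 12.7% in KO and 13.2% in WT. The deposited span of Cdkn2d, 103 Mb on chromosome 9, covers Ephb1, Plxnb1, Sema3b, Sema3f and Sema7a, and whether that row shares reads with them was not tested.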

How the data were processed

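RNA-seq libraries of male E13.5 gonads were prepared with an Illumina TruSeq RNA kit, per the labels' protocols. The authors deposited 1 table holding a signal per gene and library, which its header and name describe as upper-quartile normalised pseudo-counts. CASAVA 1.8.2, edgeR 2.6.2 and the build mm9 are named in the submitters' processing notes. What each did, and which annotation was used, is not given in the sources used here. Because these deposited values are fractional and whole reads were not recovered, no count model or counting interval was applied, and precision rests on 3 libraries a group. Every column matched a library title (0 unmatched).

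A constant of 1 was added, logarithms to base 2 were taken and limma 3.58.1 (R 4.3.3) was run with a mean-dependent prior. Genes reaching 10 in 3 or more libraries entered (15116). Tests were two-sided with Benjamini-Hochberg adjustment and a threshold of 0.05. The added constant makes changes of low genes too small. For corrected values, natural splines (4 degrees of freedom each) on log2 length and GC content of the longest protein-coding transcript in GENCODE vM21 were subtracted in each library, for 14449 genes (95.6%) matched by NCBI gene number, with all 57 members among those matched. Figures were drawn with matplotlib 3.10.9 (Python 3.11.15). The members, lists, tests and the rule for naming genes (members past the threshold, the highest of each family, and calls that differ once corrected) were chosen with earlier results of these data known.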

Additional observations from a re-analysis of the deposited data

How the results depend on the processing

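No paired analysis was possible because the labels do not say which KO and WT libraries shared a litter. As deposited 12 members were higher and 3 lower. With 1 library left out, 8 to 15 were higher and 2 to 3 lower, where all genes gave 1635 to 2495 higher and 1397 to 2546 lower. Correction for length and GC left 3 higher and 0 lower, and the same counts came with WT library 1 also left out. Over all genes it gave 820 higher and 834 lower, and leaving out WT library 4 gave 1635 and 1397. Library weights gave 15 higher and 5 lower, where all genes gave 3550 and 3693. A prior without dependence on the mean gave 9 and 1, where all genes gave 2130 and 1944. Pseudocounts of 0.5, 5 and 10, no filter, a filter at 50, median-of-ratios scaling, equal totals, quantile normalisation, a robust prior and a threshold of 0.1 gave 10 to 14 higher and 2 to 4 lower. Over all genes these settings gave 2564 to 3507 higher and 1687 to 3375 lower. Equal totals moved the median of all genes from -0.03 to 0.07 on the log2 scale, and 3507 genes were then higher and 1687 lower, against 2609 and 2571.

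Over 400 values of 20 genes, 15 turned in sign. After the correction these were Efnb1 (0.0044), Sema5a (-0.01), Sema7a (0.06), Unc5b (-9.1e-05) and Unc5c (-0.23). With WT library 1 also left out they were Epha7 (-0.16), Plxna4 (-0.06), Sema5a (-0.06), Unc5b (-0.19) and Unc5c (-0.27). Plxnb2 turned under quantile normalisation (0.08), Sema7a without KO library 7 (0.03; range -0.26 to 0.03 with each library left out), and Unc5b without KO library 5 (-0.01), KO library 8 (-0.03) or WT library 1 (-0.15; range -0.15 to 0.20). Sema6b lost its call with equal totals, and Plxna4 and Unc5c lost theirs under quantile normalisation. Of the values that did not turn 45 lost a call, 2 gained one (Efnb1) and 338 kept direction and call; the cause was not tested. Depth is unknown, so it is not known which low genes it limits.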
